A study of Mus musculus with 16 samples.

Results

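The genes described here are 9 genes of the cytosolic protein quality control system, chosen by name from the 55404 genes of the table: the polyubiquitin gene Ubb and the chaperone genes Hspa1a, Hspa1b, Hspb1, Hsph1, Hspa8, Hsp90aa1, Dnajb1 and Bag3. All 9 were found by their Ensembl IDs and all 9 passed the limits on low values. They were put forward with the measured values of these mice in view, namely the genotype difference set against the spread between mice. Their genotype differences are therefore given as a description, with standard errors and 95% intervals but without p-values. Whole-brain RNA libraries came from 8 Tecpr2 ki/ki mice, homozygous for the L1152Yfs knock-in (L1152fs in the sample labels), and 8 wt/wt mice, all untreated males of 5 months with 1 library per mouse. The frameshift was introduced by CRISPR/Cas9 editing of C57BL/6J zygotes, is present in every cell of the body, and removes TECPR2, a protein of membrane trafficking. How many founder lines the mice come from was not given in the sources used here.

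Chaperones bind unfolded proteins and help them to fold. HSP70 proteins do so in cycles of ATP hydrolysis that are started by J-domain partners and ended by nucleotide exchange factors, and HSP90 proteins act on clients handed over by HSP70. Heat shock factor 1 induces many of these genes when misfolded proteins, heat or oxidants load the system, through heat shock elements, which are repeats of the letters GAA in alternating orientation. Polyubiquitin genes supply the ubiquitin that marks proteins for the proteasome, and they too are induced by stress. In the brain the constitutive HSC70 and HSP90 genes are strongly expressed, whereas the inducible HSP70 genes are low without stress.

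The deposited values are linear normalized values rounded to whole numbers, and the sum over all genes lay between 11964284 and 12252324 per mouse. Size factors estimated from the pattern that rounding left among low values put the reads counted on genes between 9.23 and 15.39 megareads per mouse. Tecpr2 itself lay between 274 and 320 in Tecpr2 ki/ki and between 928 and 1002 in wt/wt mice. All 16 libraries thus matched their labels. No library stood apart: the median correlation of a library with the other libraries lay between 0.9837 and 0.988. Marker genes of neurons, astrocytes, oligodendrocytes, microglia, endothelium and choroid plexus were all present, with 0 of these genes at 0 in all mice, as in whole brain. The summed value of 8 astrocyte markers was 64561 to 66937 in Tecpr2 ki/ki and 60925 to 64330 in wt/wt mice, of which Slc1a2 alone made up 69.6%. Without Slc1a2 the astrocyte sum was 19743 to 20794 against 17872 to 19674. The sum of 8 microglia markers was 2185 to 2366 against 1981 to 2190, that of 7 choroid plexus markers 4481 to 5152 against 4987 to 5628, and that of 8 neuron markers 60449 to 63130 against 60771 to 65127. Taken singly, the 7 choroid plexus genes were split, with 3 higher and 4 lower in Tecpr2 ki/ki and a median log2 difference of -0.028. In such bulk samples more cells of a type cannot be told apart from more RNA per cell. The part of these shifts in the small differences given here was not tested.

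The inducible HSP70 genes Hspa1a and Hspa1b are shown by their promoters, because both genes moved together from mouse to mouse and their genotype differences were small beside that movement. Each window below is the 250 bases before the RefSeq start site in GRCm38.p6, written from 5′ to 3′ on the strand of the gene. Capitals mark GAANNTTC or TTCNNGAA, the letters of adjoining heat shock repeats, and Hspb1 is shown beside them as a small chaperone gene with 2 such stretches.
Hspa1a, chr17:34972157-34972406, minus strand: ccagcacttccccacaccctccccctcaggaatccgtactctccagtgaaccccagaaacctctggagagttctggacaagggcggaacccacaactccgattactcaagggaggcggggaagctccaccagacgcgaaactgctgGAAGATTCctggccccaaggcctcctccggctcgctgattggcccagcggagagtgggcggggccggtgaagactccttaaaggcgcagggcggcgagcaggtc
Hspa1b, chr17:34959239-34959488, minus strand: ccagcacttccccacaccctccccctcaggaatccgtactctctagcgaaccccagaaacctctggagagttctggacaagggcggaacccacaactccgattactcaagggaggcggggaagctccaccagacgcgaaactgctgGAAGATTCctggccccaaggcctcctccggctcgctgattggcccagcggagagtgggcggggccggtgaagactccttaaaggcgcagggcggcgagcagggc
Hspb1, chr5:135887669-135887918, plus strand: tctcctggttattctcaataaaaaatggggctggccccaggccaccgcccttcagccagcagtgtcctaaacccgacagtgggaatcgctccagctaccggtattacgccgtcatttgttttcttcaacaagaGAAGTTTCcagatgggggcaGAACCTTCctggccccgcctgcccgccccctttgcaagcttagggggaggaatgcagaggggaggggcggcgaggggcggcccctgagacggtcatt
The Hspa1a and Hspa1b windows were identical at 247 of 250 positions. Counted from 1 at the 5′ end of the window, with Hspa1a first, they differed by C44T, T47C and T249G. The capital stretch began 104 bases before the start site in both genes (-104), and in Hspb1 the stretches began at -117 and -97. The promoter windows of Hsph1, at its 2 start sites, held the same TTCNNGAA stretch, while those of Ubb, Dnajb1 and Bag3 held neither motif. Ubb and Dnajb1 also have 2 start sites each, and the window of the downstream site lies inside the annotated gene. For Dnajb1 and Bag3 the bases after the RefSeq start were not found in a GENCODE transcript of the gene. Their start sites are therefore less certain. On either strand, GAANNTTC occurred in 6.69% and TTCNNGAA in 7.17% of all 32851 promoter windows of this length. These matches are letters only and say nothing of binding.

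None of the 9 genes separated the genotypes. Set against the whole table, 0 of 9 members passed limma at a Benjamini-Hochberg adjusted p of 0.1, against 0.133% of the 23244 genes tested, or 0.0946% higher and 0.0387% lower in Tecpr2 ki/ki. In 0 of 9 members did the genotypes lie apart without overlap (0.086% of all tested genes). With shares this low, few such genes are to be expected among any 9. As the list was made with these differences in view, both counts are a description only. The differences between genotype means lay between -0.042 (Hsp90aa1) and 0.178 (Hspb1) in log2(value + 1), with a median of 0.011, and 5 members were higher and 4 lower. Over all tested genes the median was -0.001.

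**Figure D1:**
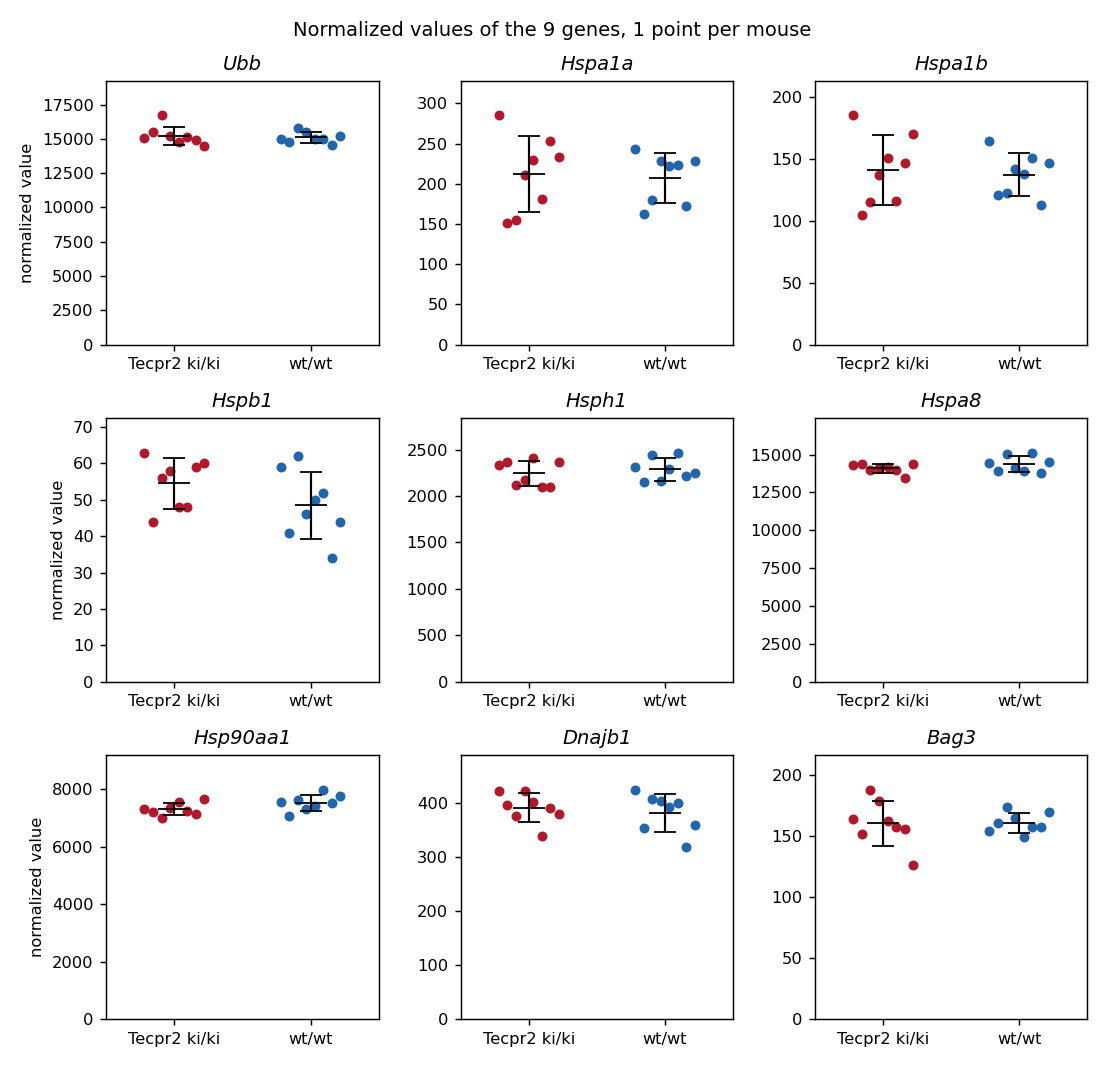
Normalized value (y axis, linear, from 0) of each of the 9 genes in the 8 Tecpr2 ki/ki mice (red) and the 8 wt/wt mice (blue), 1 point per mouse in the order of its replicate number, with the mean and SD in black. The genotypes overlap in every panel, and the points are widest apart for Hspa1a, from 151 to 285.

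Ubb (ENSMUSG00000019505, chromosome 11, 62551171 to 62553213 in GRCm38) encodes ubiquitin as a chain of head-to-tail repeats. Its value was 14486 to 16710 in Tecpr2 ki/ki (median 15080) and 14581 to 15811 in wt/wt mice (median 15012.5). The highest and the lowest of all 16 mice were both Tecpr2 ki/ki mice, mouse 3 and mouse 8. The means of knock-in and control mice were 15228 ± 670 (SD, n = 8) and 15105 ± 395 (SD, n = 8), a log2 difference of 0.011 (standard error 0.0251, 95% interval -0.043 to 0.065). Without Tecpr2 ki/ki mouse 3 this difference was -0.008. For Rps27a, which encodes a ubiquitin unit fused to a ribosomal protein, the log2 difference was 0.001 (Benjamini-Hochberg adjusted p = 0.999 by limma).

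Hspa1a (ENSMUSG00000091971, chromosome 17, 34969190 to 34972156 in GRCm38) and Hspa1b (ENSMUSG00000090877, chromosome 17, 34956436 to 34959238 in GRCm38) are neighbouring genes for the stress-inducible HSP70. Hspa1a was 151 to 285 in Tecpr2 ki/ki (median 220.5) and 162 to 243 in wt/wt mice (median 222.5). Tecpr2 ki/ki mice 1 and 7 lay above all wt/wt mice and Tecpr2 ki/ki mice 2 and 3 below all of them, so that the knock-in group enclosed the control group. The means were 212 ± 47.4 (SD, n = 8) and 207 ± 30.8 (SD, n = 8), and the log2 difference was 0.017 (standard error 0.14, 95% interval -0.282 to 0.317). Hspa1b was 105 to 185 in Tecpr2 ki/ki (median 142) and 113 to 164 in wt/wt mice (median 140.0), with the same mice, Tecpr2 ki/ki 1 and 2, at the top and the bottom. Its means were 141 ± 28.1 (SD, n = 8) and 137 ± 17.4 (SD, n = 8), and the log2 difference was 0.021 (standard error 0.102, 95% interval -0.188 to 0.23). For these genes a difference of up to 1.25-fold (Hspa1a) or 1.17-fold (Hspa1b) upwards lies within the interval, so a modest induction was not detectable with this spread.

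Hspb1 (ENSMUSG00000004951, chromosome 5, 135887919 to 135889563 in GRCm38) encodes HSP27, a small heat shock protein that holds unfolded proteins without ATP and is found in glia and some neurons. It was the lowest of the 9 genes, with 44 to 63 in Tecpr2 ki/ki (median 57) and 34 to 62 in wt/wt mice (median 48). Tecpr2 ki/ki mice lay above the wt/wt median in 5 of 8 cases and above all wt/wt mice in 1. The means were 54.5 ± 6.89 (SD, n = 8) and 48.5 ± 9.26 (SD, n = 8). The log2 difference of 0.178 was the largest among the members and the least precise after Hspa1a (standard error 0.115, 95% interval -0.052 to 0.407). With 1 wt/wt mouse left out it lay between 0.11 (without mouse 7) and 0.231 (without mouse 3).

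Hspa8 (ENSMUSG00000015656, chromosome 9, 40800984 to 40810087 in GRCm38) encodes HSC70, the constitutive cytosolic HSP70 that also uncoats clathrin vesicles. It was 13433 to 14363 in Tecpr2 ki/ki (median 14140) and 13795 to 15130 in wt/wt mice (median 14276.5). The highest values were those of wt/wt mice 3 and 6, and the lowest that of Tecpr2 ki/ki mouse 7. The means were 14093 ± 308 (SD, n = 8) and 14362 ± 520 (SD, n = 8), a log2 difference of -0.027 (standard error 0.0186, 95% interval -0.065 to 0.012). Hsph1 (ENSMUSG00000029657, chromosome 5, 149614287 to 149636376 in GRCm38) encodes HSP110, an exchange factor of HSP70. Its range was 2098 to 2414 in Tecpr2 ki/ki (median 2252.5) and 2146 to 2468 in wt/wt mice (median 2268). In Tecpr2 ki/ki mice 4 values lay above the wt/wt median and 3 below all wt/wt mice. The means of Hsph1 were 2247 ± 135 (SD, n = 8) and 2286 ± 121 (SD, n = 8), and its log2 difference was -0.026 (standard error 0.0371, 95% interval -0.103 to 0.052).

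Dnajb1 (ENSMUSG00000005483, chromosome 8, 83608193 to 83612653 in GRCm38) encodes HSP40, the J-domain partner that starts the HSP70 cycle. It was 339 to 423 in Tecpr2 ki/ki (median 394) and 319 to 425 in wt/wt mice (median 396.5), so that the wt/wt range contained every Tecpr2 ki/ki mouse. The means were 391 ± 27.2 (SD, n = 8) and 383 ± 35.2 (SD, n = 8), and the log2 difference was 0.035 (standard error 0.0489, 95% interval -0.063 to 0.133). Bag3 (ENSMUSG00000030847, chromosome 7, 128523616 to 128546981 in GRCm38) encodes an HSP70 exchange factor of chaperone-assisted autophagy. It was 126 to 188 in Tecpr2 ki/ki (median 159.5) and 149 to 174 in wt/wt mice (median 159). The SD of Bag3 was 18.5 in Tecpr2 ki/ki and 8.37 in wt/wt mice, with Tecpr2 ki/ki mouse 3 highest and mouse 8 lowest. Its log2 difference was -0.010 (standard error 0.0665, 95% interval -0.143 to 0.122).

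Hsp90aa1 (ENSMUSG00000021270) encodes the inducible cytosolic HSP90 and lies on chromosome 12 from 110690605 to 110702728 in GRCm38, 187 kb before the start of Tecpr2, the edited gene. It was 7017 to 7673 in Tecpr2 ki/ki (median 7281) and 7074 to 7992 in wt/wt mice (median 7546). The wt/wt median was exceeded by 2 of 8 knock-in mice, and 1 of 8 lay below all wt/wt mice. The means were 7314 ± 218 (SD, n = 8) and 7533 ± 280 (SD, n = 8), and the log2 difference was -0.042 (standard error 0.0196, 95% interval -0.082 to -0.002). This is a ratio of 0.971. With 1 mouse left out the log2 difference lay between -0.055 and -0.03. Its constitutive paralog Hsp90ab1 had a log2 difference of -0.023 (Benjamini-Hochberg adjusted p = 0.902 by limma).

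**Figure D2:**
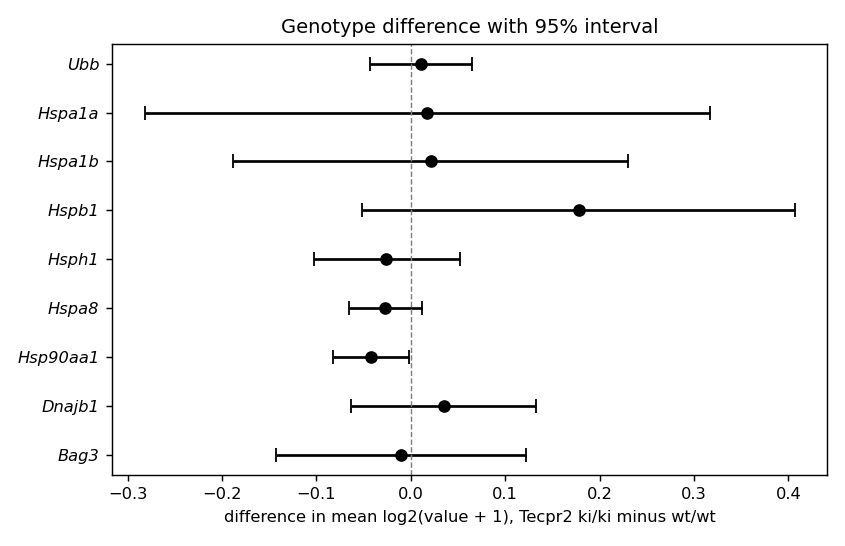
Difference between the mean log2(value + 1) of the knock-in and the control group, 8 mice each (x axis) for each of the 9 genes (y axis), as points with the 95% interval from limma as bars. The points lie between -0.042 (Hsp90aa1) and 0.178 (Hspb1), and the widest interval is that of Hspa1a, from -0.282 to 0.317.

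Because Hsp90aa1 lies close to the edited site, the other genes with a start within 500 kb of the start of Tecpr2 were set beside it. Of 31 annotated genes 23 were tested, with 13 higher and 10 lower in the knock-in group and a median log2 difference of 0.046. By limma, 0 of the 23 reached a Benjamini-Hochberg adjusted p of 0.1, against 0.133% of all tested genes. An unadjusted p under 0.05 was found in 3 of the 23, against 6.08% of all tested genes. The smallest p-value was that of the Gm35558 entry ENSMUSG00000113781 (log2 difference 0.803, standard error 0.373, Benjamini-Hochberg adjusted p = 0.807 by limma). The other entries under this symbol had log2 differences of 0.126 and 0.109. Next came Cinp (log2 difference -0.111, standard error 0.0529, Benjamini-Hochberg adjusted p = 0.813 by limma). This gene of the DNA replication checkpoint lies on the opposite strand, with its 5′ end just before the start of Tecpr2.

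Per kilobase of annotated exon sequence, the level fell from Ubb to Hspb1 through 9 genes of very different abundance. In wt/wt mice Ubb was highest, with 9020 ± 236 (SD, n = 8) per kb, followed by Hspa8 with 3340 ± 121 (SD, n = 8), Hsp90aa1 with 1920 ± 71.2 (SD, n = 8), Hsph1 with 315 ± 16.6 (SD, n = 8) and Dnajb1 with 119 ± 11 (SD, n = 8) per kb. The other 4 genes were close to each other: Hspa1a had 69.9 ± 10.4 (SD, n = 8), Bag3 62.8 ± 3.27 (SD, n = 8), Hspa1b 49.0 ± 6.19 (SD, n = 8) and Hspb1 47.0 ± 8.98 (SD, n = 8) per kb. Hspa1a and Bag3, and likewise Hspa1b and Hspb1, did not differ beyond their spread. In Tecpr2 ki/ki mice the first 7 places were held by the same genes, and Hspb1 (52.9 per kb) and Hspa1b (50.2 per kb) changed places.

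Several of these genes share sequence with near-identical copies, so that the authors' counting could split or drop their reads. Of the 31-base words in Hspa1a transcripts 63.8% also occur in Hspa1b, and the ratio of both values was 1.34 to 1.72 over the 16 mice (median 1.52), which makes them uncertain as single genes. Of the words of Ubb 49.3% occur in the pseudogene Gm1821, listed with a mean value of 4671. Of those of Hspb1 52.3% occur in the pseudogene Hsp25-ps1, whose mean value was 3.3. Of those of Hspa8 38.6% occur in Gm15459 (mean value 3215), and of those of Hsp90aa1 46.7% in Gm12346 (mean value 1452). Hsph1 and Bag3 shared no word with another gene. When the values of all genes that share at least 10% of the words were added, the log2 difference was 0.017 for Ubb, 0.152 for Hspb1, -0.023 for Hspa8 and -0.039 for Hsp90aa1. For Hspa1a and Hspa1b summed it was 0.019 (standard error 0.131). Hspa1l, which shares 12.1% of the words of Hspa1a and 11.1% of those of Hspa1b, was not part of that sum. The added genes held 24.7% of the sum for Ubb, 24.6% for Hspa8, 20.5% for Hsp90aa1 and 6.04% for Hspb1.

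What varied was the level between mice of the same genotype. The coefficient of variation of Hspa1a was 22.3% in Tecpr2 ki/ki and 14.9% in wt/wt mice, where counting whole reads alone would give 7.0%. The variance of Hspa1a was 7.33 times the counting variance, that of Hspa1b 3.81 times, that of Hsph1 7.21 times, that of Hsp90aa1 8.39 times, that of Hspa8 12.7 times and that of Ubb 19.8 times. For Hspb1 and Bag3 the ratio was 1.32 and 1.27. By genotype, that of Hspb1 was 0.83 in Tecpr2 ki/ki and 1.77 in wt/wt mice, and that of Bag3 2.01 and 0.453. Against the SD that limma's trend gives for genes of the same level, the residual SD on the log2 scale was 2.38 times as large for Hspa1a, 2.07 times for Ubb, 1.8 times for Hsph1, 1.71 times for Hspa8, 1.68 times for Hspa1b and 1.57 times for Hsp90aa1. For Bag3 and Hspb1 this ratio was 0.991 and 1.03.

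**Figure D3:**
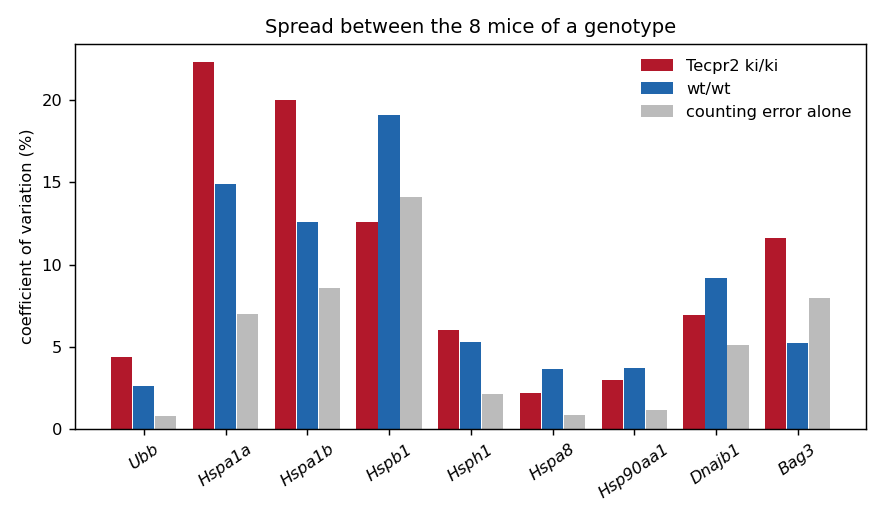
Coefficient of variation in percent (y axis, linear, from 0) of each of the 9 genes among the 8 Tecpr2 ki/ki mice (red) and the 8 wt/wt mice (blue), beside the value that counting whole reads alone would give at the estimated depth (grey). The largest values are those of Hspa1a in Tecpr2 ki/ki mice, 22.3%, and Hspa1b, 20.0%, while the highly expressed Hspa8, Hsp90aa1 and Ubb stay under 5%.

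Many pairs of members varied together. After centring within each genotype, 28 of the 36 pairs of members correlated positively over the 16 mice and 10 had a Pearson r over 0.5, with a median r of 0.231. Over all pairs of the 13756 other genes with a mean value of at least 50, 50.5% had r over 0 and 3.51% had r over 0.5, and the median was 0.004. These correlations are given as a description, since members and values were known when the list was made. Hspa1a and Hspa1b had r = 0.938 (Spearman's rho 0.904), which their shared sequence bears on. Both correlated moderately with Hspb1 (r = 0.513 and 0.576) and Dnajb1 (r = 0.503 and 0.531), and Hspb1 and Dnajb1 had r = 0.733 (rho 0.689). A second set, seen only in the values, was made of Hsph1, Hspa8 and Hsp90aa1. In it r was 0.784 for Hsph1 and Hspa8, 0.722 for Hsph1 and Hsp90aa1, and 0.659 for Hspa8 and Hsp90aa1, and in each genotype alone these values lay between 0.503 and 0.86. Ubb and Bag3 went together (r = 0.709, rho 0.519), and without the 2 mice most extreme in Ubb r was 0.526. Ubb and Hspa1a had r = -0.423, which was -0.701 in Tecpr2 ki/ki and 0.256 in wt/wt mice. Without the 2 mice most extreme in Ubb this r was only -0.0729, so the relation rests on those mice.

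**Figure D4:**
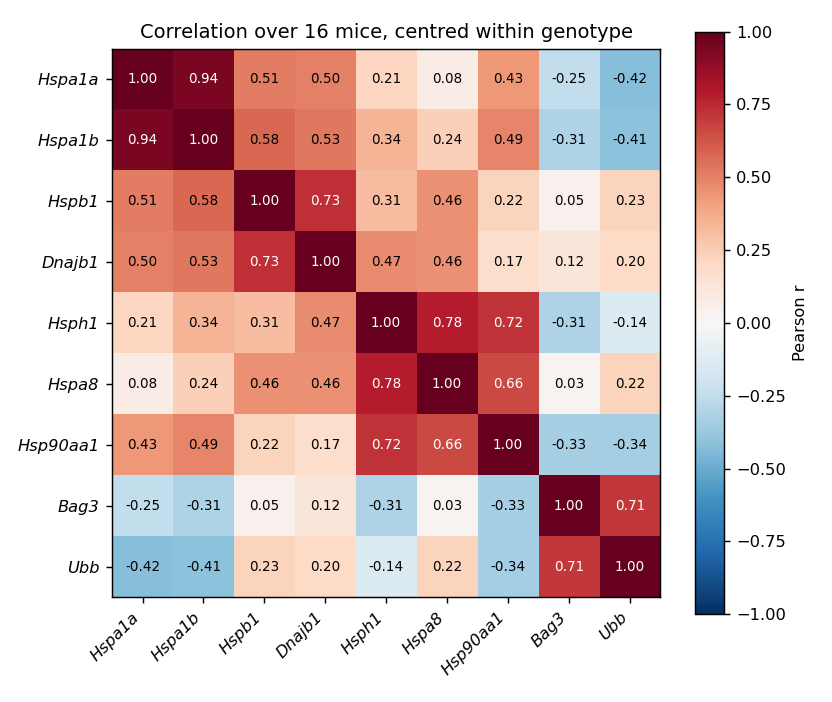
Pearson r over the 16 mice for every pair of the 9 genes (rows and columns), computed from log2(value + 1) centred within genotype, on a colour scale from -1 (blue) to 1 (red). Hspa1a and Hspa1b stand out with 0.938, Hsph1, Hspa8 and Hsp90aa1 form a block from 0.659 to 0.784, and Ubb goes mainly with Bag3 (0.709).

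Heat shock genes follow body and tissue temperature, and Rbm3 and Cirbp, which encode RNA-binding proteins induced by mild cold, follow it in the opposite direction. Brain temperature is not among the data. Rbm3 was 465 to 598 in Tecpr2 ki/ki (median 544.5) and 488 to 625 in wt/wt mice (median 551), and Cirbp was 371 to 484 (median 437) and 379 to 514 (median 452). Neither passed the test between genotypes (Benjamini-Hochberg adjusted p = 0.931 and 0.939 by limma, log2 differences -0.051 and -0.05). Over the 16 mice, however, Rbm3 was low where several chaperone genes were high. Tecpr2 ki/ki mouse 8 and wt/wt mouse 6 had the lowest Rbm3 of their genotypes, 465 and 488, and the highest Hsp90aa1, 7673 and 7992. Wt/wt mouse 2 had the highest Rbm3, 625, and the lowest Hsp90aa1 of its genotype, 7074. In Tecpr2 ki/ki mice this end did not match. Mouse 6 had their highest Rbm3, 598, with Hsp90aa1 at 7247, and mouse 3 their lowest Hsp90aa1, 7017.

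The 9 members were each tested against Rbm3, Cirbp, the mean of 16 immediate early genes and the size factor of the library, 36 pairs in all, with permutation tests over the 16 mice centred within genotype. The members were put forward with their genotype difference and their spread between these mice in view. That spread is the variation correlated here, so the permutation p-values describe the relations and are no independent test. Benjamini-Hochberg adjustment was made over the 36 pairs. Read as a description, 4 pairs had an adjusted permutation p under 0.05 for Pearson's r and 5 for Spearman's rho. For Hsp90aa1 and Rbm3, r was -0.814 (permutation p = 0.00013, adjusted 0.00468) and rho -0.785 (permutation p = 0.00044, adjusted 0.0158). For Hsph1 and Rbm3, r was -0.751 (permutation p = 0.00113, adjusted 0.0203) and rho -0.741 (permutation p = 0.00127, adjusted 0.0212). For Hspa1b and Rbm3, r was -0.695 (permutation p = 0.00328, adjusted 0.0307) and rho -0.735 (permutation p = 0.00177, adjusted 0.0212). Hsph1 also went against Cirbp, with r = -0.692 (permutation p = 0.00341, adjusted 0.0307) and rho -0.712 (permutation p = 0.00275, adjusted 0.0247). For Hspa8 and Rbm3 the adjusted p was under 0.05 for rho alone (rho -0.679, permutation p = 0.00512, adjusted 0.0369), with r = -0.643 (permutation p = 0.0079, adjusted 0.0562).

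The sign of these relations was the same in both genotypes. For Hsp90aa1 and Rbm3, r was -0.704 in Tecpr2 ki/ki and -0.906 in wt/wt mice, for Hsph1 and Rbm3 -0.692 and -0.822, and for Hspa1b and Rbm3 -0.843 and -0.519. Without the 2 mice farthest from the median of Rbm3, r was -0.688 for Hsp90aa1, -0.667 for Hsph1 and -0.641 for Hspa1b, and the permutation p-values adjusted over 36 pairs rose to 0.0722, 0.0976 and 0.102. These relations thus rest in part on those mice. For Hsph1 and Cirbp r was -0.775 without the corresponding 2 mice. Among 13756 genes with a mean value of at least 50, 0.0363% (5 genes) had an r with Rbm3 as low as that of Hsp90aa1 or lower, 0.167% as low as that of Hsph1 and 0.371% as low as that of Hspa1b. Rbm3 also correlated with the size factor of the library (r = 0.567). With the size factor taken out by regression, r with Rbm3 was -0.778 for Hsp90aa1 (adjusted permutation p = 0.00486), -0.856 for Hsph1 (adjusted permutation p = 0.00081) and -0.613 for Hspa1b (adjusted permutation p = 0.0532). Ubb and Bag3, in contrast, had r of 0.327 and 0.409 with Rbm3 (adjusted permutation p over 0.1 for both). These were 0.631 and 0.636 in Tecpr2 ki/ki but -0.131 and 0.00868 in wt/wt mice. With Cirbp, r was 0.333 for Ubb and 0.556 for Bag3 (adjusted permutation p = 0.319 and 0.0935). The other members all had a negative r with Cirbp, from -0.692 (Hsph1) to -0.329 (Hspb1). Cirbp and Rbm3 had r = 0.512 with each other (rho 0.432).

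**Figure D5:**
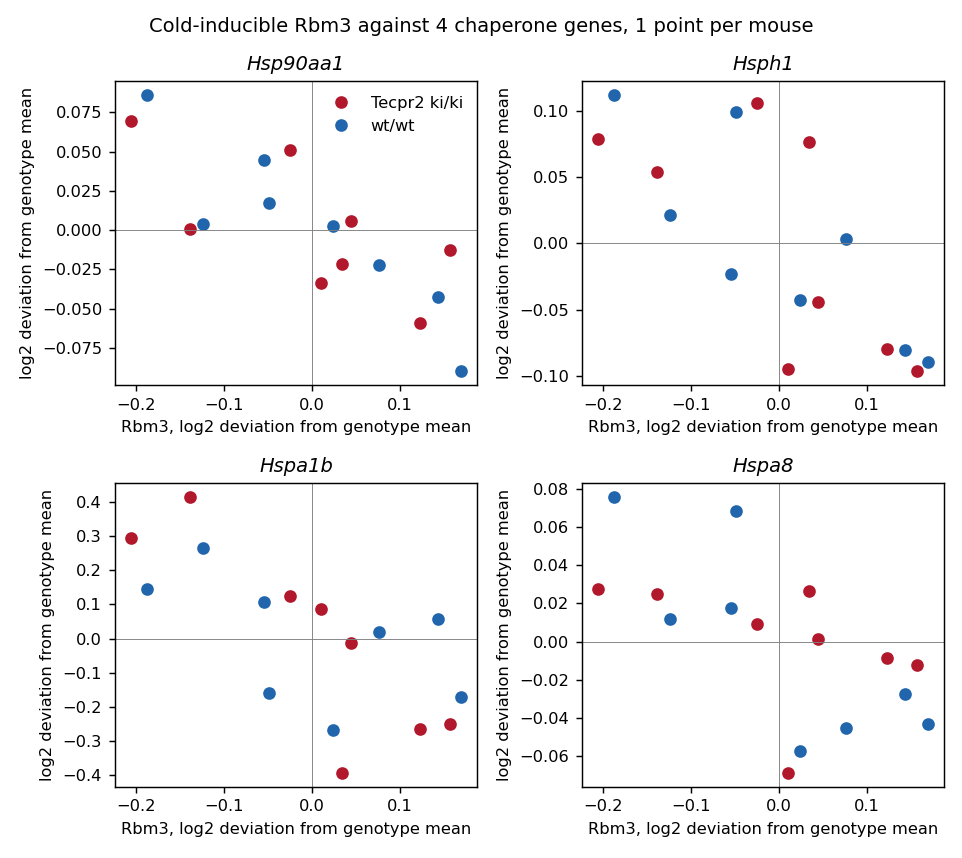
Log2 deviation from the genotype mean of Rbm3 (x axis) against that of Hsp90aa1, Hsph1, Hspa1b and Hspa8 (y axes), 1 point per mouse, Tecpr2 ki/ki in red and wt/wt in blue. In each panel the points fall from upper left to lower right in both genotypes, with r = -0.814, -0.751, -0.695 and -0.643.

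The wider chaperone and ubiquitin system was followed with 134 further genes, of which 128 were tested. By limma, 0 of them reached a Benjamini-Hochberg adjusted p of 0.1, against 0.133% of all tested genes. At an unadjusted p under 0.05 there were 13, of which Tecpr2 ki/ki mice were lower in 12 and higher in 1. Of all tested genes 6.08% passed this limit, 3.07% higher and 3.01% lower. At an unadjusted p under 0.01 there were 4 of the 128, against 1.56% of all tested genes. The median log2 difference of the 128 genes was -0.017, with 80 lower and 48 higher. When each library was scaled to the same total, 78 were lower. The single higher gene was Cryab, a small heat shock protein gene of oligodendrocytes and astrocytes, with means of 590 ± 30.5 (SD, n = 8) in knock-in and 541 ± 39.2 (SD, n = 8) in control mice (log2 difference 0.127, standard error 0.0393, Benjamini-Hochberg adjusted p = 0.404 by limma).

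Among the other HSP70 genes 8 of 11 were lower. Hspa4, which encodes an HSP110 relative of Hsph1, was 2183 to 2419 in Tecpr2 ki/ki and 2320 to 2512 in wt/wt mice, with 3 Tecpr2 ki/ki mice below all wt/wt mice. Its log2 difference was -0.075 (standard error 0.0219, Benjamini-Hochberg adjusted p = 0.286 by limma). Hspa12b, an HSP70 gene of endothelial cells, had a log2 difference of -0.13 (Benjamini-Hochberg adjusted p = 0.877 by limma). Of 19 J-domain genes 14 were lower, first of them Dnajc6, which encodes the clathrin uncoating factor auxilin, and Dnajc5, the synaptic vesicle gene CSPα, with log2 differences of -0.04 and -0.041 (Benjamini-Hochberg adjusted p = 0.807 for each by limma). Bag2, an HSP70 exchange factor, was 41 to 66 in Tecpr2 ki/ki and 55 to 76 in wt/wt mice, with 5 of 8 Tecpr2 ki/ki mice below all wt/wt mice (log2 difference -0.312, standard error 0.107, Benjamini-Hochberg adjusted p = 0.527 by limma). Bag1 had a log2 difference of -0.089 (Benjamini-Hochberg adjusted p = 0.82 by limma).

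Of 19 genes of HSP90 and its cochaperones 11 were higher and 8 lower, with Fkbp5, a glucocorticoid-induced cochaperone, at 0.094 and Cdc37l1 at 0.036 (Benjamini-Hochberg adjusted p = 0.877 and 0.89 by limma). The 16 chaperonin and prefoldin genes were split 8 to 8, with log2 differences of -0.052 for Cct6a and -0.042 for Tcp1. Heat shock factor 1, encoded by Hsf1, was 358 to 463 in Tecpr2 ki/ki and 372 to 434 in wt/wt mice (log2 difference -0.053, Benjamini-Hochberg adjusted p = 0.916 by limma). The related Hsf2 had a log2 difference of -0.094 (Benjamini-Hochberg adjusted p = 0.807 by limma). Of 14 ubiquitin genes 10 were lower, with Usp14, a deubiquitinase of the proteasome, at -0.058 and Uchl1, an abundant neuronal ubiquitin hydrolase, at -0.051 (Benjamini-Hochberg adjusted p = 0.807 for each by limma). Of 31 proteasome subunit genes 20 were lower, and 4 had an unadjusted p under 0.05, all lower. Psma5 was lowest in p, with a log2 difference of -0.178 (standard error 0.0629, Benjamini-Hochberg adjusted p = 0.565 by limma), followed by Psmd14 with -0.093 (Benjamini-Hochberg adjusted p = 0.664 by limma).

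The genes whose pattern over the 16 mice was most like the mean of the 9 standardized members were sought among the 13756 genes outside the 9 members with a mean value of at least 50. First came Hyou1, which encodes an HSP110 relative of the endoplasmic reticulum, with r = 0.802. It was followed by Mob1a (0.798), Tmem120a (0.789), Mlec (0.784), Zfp882 (0.782), the neuronal intermediate filament gene Ina (0.78), the dynactin gene Dctn1 (0.778), Sox17 (0.769), 1810013L24Rik (0.769) and the pseudogene Gm10039 (0.767). Outside the 9 members, the gene most similar to each of 8 of them was Arhgdia for Ubb (r = 0.933), Ints8 for Hspa1a (0.9) and Hspa1b (0.882), Chmp4b for Hspb1 (0.847), the osmotically induced inositol transporter gene Slc5a3 for Hsph1 (0.903), Tmem64 for Hspa8 (0.847), Enc1 for Hsp90aa1 (0.876) and Vps37d for Dnajb1 (0.852). Ubb had many more such genes than the others: 72 had r over 0.8 with it, against 15 for Bag3 and between 3 and 9 for the other 7 members.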

How the data were processed

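The authors prepared stranded total RNA libraries with ribosomal RNA depletion from the brains of 8 mice per genotype. Groups and replicate numbers follow the sample labels, the sex follows the paper. The paper and the submitters' notes name Trim Galore 0.6.10, cutadapt 3.4, STAR 2.7.10b, GRCm39, summarizeOverlaps and DESeq2 1.40.2. What the authors deposited is a score: linear values, normalized in a way the sources used here do not name and rounded to whole numbers.

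An analysis of raw counts had been planned. As the values are normalized, log2(value + 1) was fitted with limma 3.58.1 (R 4.3.3) with genotype as the only term, a variance trend and robust estimation, and p-values were adjusted by Benjamini-Hochberg over 23244 genes (sum over 16, and values over 5 in 4 or more mice of either genotype). Changes on this scale understate those of low genes. The fit was tested on simulated data. Correlations used 100000 permutations over 16 mice or all orders of 8. Size factors were estimated by maximum likelihood, and for Tecpr2 ki/ki mouse 4 and wt/wt mouse 1 they could not be told apart from 1. Counting error assumes independent reads. Python 3.11.15, numpy 2.4.6, scipy 1.17.1, pandas 2.3.3 and matplotlib 3.10.9 were used.

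Symbols (52017 of 55404 genes), positions, exon lengths and transcript words are from GENCODE M21 (GRCm38) and promoters from RefSeq (GRCm38.p6, 7 of 9 members), an earlier build than that of the alignment. Members and lists were chosen with earlier results of these data known. Other genes were named by a rule: per list, those with an adjusted p under 0.1, otherwise the 2 smallest p-values, likewise for neighbours of Tecpr2, and the genes most alike over mice. Some genes that fall under this rule are not reported here. Rps27a, Hsp90ab1 and Hsf1 were added with their values known. Alternatives were other pseudocounts, no filter, other scalings and variance models, a replicate block and each mouse left out. Sums with sharing genes, and correlations after rescaling or with the size factor, were added after the data had been seen.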

Additional observations from a re-analysis of the deposited data

Results flagged for a closer look

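In 2 of 22 groups of 8 mice (the 9 genes, Rbm3 and Cirbp in each genotype) a single mouse lay apart by Dixon's criterion, which chance meets in about 1 in 20 groups. Ubb was 16710 in Tecpr2 ki/ki mouse 3, with the other mice of its genotype between 14486 and 15520, and without this mouse the log2 difference of Ubb was -0.008 in place of 0.011. Hspa8 was 13433 in Tecpr2 ki/ki mouse 7, with the others between 13969 and 14363, and without it the log2 difference of Hspa8 was -0.017 in place of -0.027.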

How the results depend on the processing

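Without the settings that cannot move a difference (block, variance model, filter), the 9 genotype differences had 186 alternative values, all within 1 SD between mice of the reported value, and 168 of them had its sign. With 1 mouse left out the log2 difference ranged from -0.008 to 0.021 for Ubb, from -0.048 to 0.083 for Hspa1a (without knock-in mouse 1 and 2, respectively), from -0.038 to 0.078 for Hspa1b, from -0.002 to 0.064 for Dnajb1, from -0.044 to 0.038 for Bag3, from -0.041 to -0.01 for Hsph1 and from -0.035 to -0.016 for Hspa8, so that the signs of the first 5 depend on single mice. The number of genes called at an adjusted p under 0.1 was 20 without a filter on low values and 15 without the variance trend, against 31, and 25 to 40 with 1 mouse left out; the cause was not tested. With the replicate number as a block it was 46, and 419 genes had an unadjusted p under 0.01 in place of 362. The sample labels do not say what mice of the same number have in common. Deviations of same-numbered mice correlated over 0.1 in 1 of 8 pairs (from -0.039 to 0.149). Of the 16 mice 5 correlated best with their own number. Whether the number marks a shared factor was not tested. The intervals and the permutations given above treat all mice as unpaired. The block cannot move the members' differences in this balanced design, but it can move their standard errors. With it the standard error was 0.0661 in place of 0.14 for Hspa1a, 0.0128 in place of 0.0251 for Ubb and 0.0162 in place of 0.0196 for Hsp90aa1. It was also lower for Hspa1b (0.0732 in place of 0.102) and Hspa8 (0.0138 in place of 0.0186). For Hsph1 it was higher, 0.0422 in place of 0.0371. It changed little for Hspb1 (0.113 in place of 0.115), Bag3 (0.0659 in place of 0.0665) and Dnajb1 (0.0456 in place of 0.0489). No other chaperone or ubiquitin gene and no neighbour of Tecpr2 was called in any of the 24 alternatives. The correlations with Rbm3 and Cirbp are a description here too, as the spread between mice was in view when the members were chosen. Of the 4 with an adjusted permutation p under 0.05, 1 (Hsph1 and Cirbp) stayed under it without the 2 most extreme mice. Within Tecpr2 ki/ki mice 1 pair, which is not among the 4, lay under it, and within wt/wt mice 0 pairs, with 8 mice each. The 4 correlations kept their sign in all of these.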

Other observations

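Immediate early genes, which mark recent neuronal activity and handling, were set beside the heat shock genes. Of 16 such genes 14 were lower in Tecpr2 ki/ki mice, with a median log2 difference of -0.042, and 0 reached a Benjamini-Hochberg adjusted p of 0.1 by limma (1 had an unadjusted p under 0.05). Fosl2 had a log2 difference of -0.127 (Benjamini-Hochberg adjusted p = 0.555 by limma) and Fosb one of -0.166 (Benjamini-Hochberg adjusted p = 0.881 by limma). Their mean correlated with Dnajb1 over the 16 mice with r = 0.567 (permutation p = 0.022, adjusted over 36 pairs 0.0935) and rho = 0.329 (permutation p = 0.212), and without the 2 most extreme mice r was 0.112, so this relation rests on those mice. Of 14 clock genes 8 were higher and 6 lower, and 0 reached a Benjamini-Hochberg adjusted p of 0.1 by limma (1 had an unadjusted p under 0.05). Tef, a clock output gene, had a log2 difference of 0.075 (Benjamini-Hochberg adjusted p = 0.266 by limma) and Nr1d2 one of 0.05 (Benjamini-Hochberg adjusted p = 0.875 by limma).

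Among the marker genes of cell types, those with a Benjamini-Hochberg adjusted p under 0.1 by limma were Gfap, Aqp4 and Slc1a2 of 8 astrocyte genes and C1qa and Trem2 of 8 microglia genes, all higher, and Gad1 of 8 neuronal genes, lower. None was called among 8 oligodendrocyte, 8 endothelial, 7 choroid plexus and 5 erythrocyte genes (limma, Benjamini-Hochberg), of which 2, both of the choroid plexus, had an unadjusted p under 0.05.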
